A study of Mus musculus with 13 samples.

Results

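The 10 genes described here encode the adhesion molecules through which leukocytes and the vessel wall hold each other: the ligands Icam1 and Vcam1, the selectin Sele, the selectin ligand Selplg, the integrin alpha chains Itgam, Itgal, Itgax, Itga4 and Itga5, and the integrin beta-2 chain Itgb2. They were taken by symbol from 24445 genes in a table of read counts, each by its RefSeq transcript with the highest total count, and all 10 passed the filter on low counts, as did 11904 genes in all. The libraries came from bone marrow-derived macrophages (BMDMs), which are macrophages grown from mouse bone marrow for 7 days in medium conditioned by L929 fibroblasts, and every culture had received 100 ng/mL LPS, the bacterial cell wall component that activates macrophages, for 3 h or 24 h. The labels give 4 groups of genotype and time: WT 3 h, KO 3 h, WT 24 h and KO 24 h. By the study's methods the mice were C57Bl/6J with loxP sites around exon 9 of Acly, the enzyme that makes cytosolic acetyl-CoA from citrate, and the KO mice (AclyM-KO) also carried Cre expressed from Lyz2, a gene of myeloid cells, while the controls (WT) are described as floxed only. The presence of Cre and the loss of Acly therefore cannot be told apart. Age and sex of these mice are not given in the sources used here, and the labels do not say whether replicates came from separate animals, so p-values measure the spread between these libraries, which may be technical.

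Leukocytes first roll on selectins, which bind glycosylated ligands such as the product of Selplg (PSGL-1), and then arrest when their integrins bind immunoglobulin-type ligands. Integrins are pairs of an alpha and a beta chain: Itgal, Itgam and Itgax pair with Itgb2 to form LFA-1, Mac-1 and the CD11c integrin, of which LFA-1 and Mac-1 bind ICAM-1, whereas Itga4 and Itga5 pair with the beta-1 chain to form receptors for VCAM-1 and for fibronectin. Macrophages carry these integrins and also make ICAM-1 after LPS, while E-selectin, the product of Sele, is best known from activated endothelium.

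The promoters of Icam1, Sele and Itgam are shown as examples of genes with lower levels at 24 h than at 3 h of LPS. Vcam1, Itgax and Itga4 were also lower at 24 h, each by more than Itgam, and are not printed. Sele was also the 1 gene of the 10 past both thresholds given below between genotypes, at 3 h and by a narrow margin. Each is the 200 bases before the RefSeq start site in the build GRCm38.p6, on the plus strand, 5' to 3', at chr9:21015740-21015939 for Icam1, chr1:164048034-164048233 for Sele and chr7:128062440-128062639 for Itgam. Capitals mark matches, on either strand, to GGNNNTTCC (a loose form of the kappa B site), TGANTCA (the AP-1 site), TATAAA (the TATA box), GAGGAA (the core bound by PU.1 and other ETS factors) or GGGCGG (the GC box).
Icam1: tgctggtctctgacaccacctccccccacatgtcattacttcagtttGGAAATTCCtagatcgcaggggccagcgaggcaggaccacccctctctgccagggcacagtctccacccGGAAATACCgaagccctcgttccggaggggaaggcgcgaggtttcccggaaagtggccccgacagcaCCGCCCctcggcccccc
Sele: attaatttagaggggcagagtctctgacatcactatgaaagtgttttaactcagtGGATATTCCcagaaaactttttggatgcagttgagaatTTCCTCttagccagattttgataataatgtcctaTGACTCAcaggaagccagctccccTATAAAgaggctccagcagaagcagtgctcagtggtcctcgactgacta
Itgam: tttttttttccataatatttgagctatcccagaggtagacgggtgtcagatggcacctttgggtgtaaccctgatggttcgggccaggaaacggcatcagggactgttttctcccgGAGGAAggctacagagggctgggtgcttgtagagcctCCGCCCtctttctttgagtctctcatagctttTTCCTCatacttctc
The search itself ran over 300 bases, from 250 before to 50 after the start, and the RefSeq table held 6 of the 10 genes (Sele, Icam1, Itgam, Itgax, Itga4 and Itga5). GGNNNTTCC was found in 3 of them, at 153 and 84 bases before the start of Icam1, 145 before that of Sele and 137 before that of Itga5, and in 18.5% of all 32851 promoters of that length. Itgam, Itgax and Itga4, which were also lower at 24 h, held no match to it. The match at 153 bases in Icam1 reads the same on both strands and was counted once for each. TGANTCA lay 73 bases before the start of Sele and 56 before that of Itgax and was held by 7.81% of promoters. TATAAA was found in Sele and Icam1 and in 13.6% of promoters. In Sele it lay 49 bases before the start, and in Icam1 at base 14 counted from the start, downstream of the bases shown. GAGGAA was found in Sele, Itgam and Itga5 and in 28.3%, and GGGCGG in Icam1, Itgam, Itga4 and Itga5 and in 35.7%. None of these matches overlapped a match to another of the 5 motifs. A match describes letters in the window and says nothing about binding.

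The 12 libraries used held 21274102 to 59577343 counts (median 22683294), at which 1 count stood for 0.02 to 0.05 CPM, the normalised read count used throughout. A 13th library, WT 24 h replicate 1, held 34467 counts, so that 1 count stood for 22.4 CPM; the study states 3 samples per group, and this library was left out of all values below unless it is named. Intervals on counts given here cover counting error only. Acly was lower in KO by 1.34 (SE 0.06) on the log2 scale at 3 h and by 1.88 (SE 0.06) at 24 h, in the direction of the labels. Of 10 macrophage markers, all were measured in every group, with summed levels of 9909 to 9999 CPM in WT 3 h, 6754 to 7820 CPM in KO 3 h, 6199 to 6493 CPM in WT 24 h and 4656 to 4724 CPM in KO 24 h. Among them Lyz2, the gene from which Cre is made, was the 1 called lower in KO at each time. Its share of these sums was large, with means of 5240 CPM in WT and 2667 CPM in KO at 3 h, and 2437 and 921 CPM at 24 h. The 8 lymphocyte markers summed to at most 0.35 CPM and the 8 fibroblast markers to at most 2.18 CPM in any library.

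Most of these genes differed by time of LPS and few by genotype. A gene was called at an adjusted p under 0.05 (edgeR quasi-likelihood test, with the Benjamini-Hochberg adjustment over every transcript in the fit) and a log2 fold change beyond 0.75, the study's thresholds. Between 3 h and 24 h, 7 of the 10 genes were called in WT, 6 lower and 1 higher, against 40.4% of all genes tested, and 7 in KO, again 6 lower and 1 higher, against 41.9%. Sele, 1 of the 6 lower in each genotype, passed the filter on low counts through its 3 h libraries alone, so its lower call was favoured by the filter. The median log2 fold change of the 10 genes was -1.41 in WT and -1.40 in KO, beside 0.04 over all genes in each. On the adjusted p alone 10 were past it in WT (74.9% of all genes) and 9 in KO (75.7%), and the libraries of the time points did not overlap for 10 in WT (77.5%) and 9 in KO (76.8%). Between KO and WT, 1 of the 10 was called at 3 h, against 2.01% of all genes, and 0 at 24 h, against 1.38%. An unadjusted edgeR p under 0.05 was reached by 6 of the 10 at 3 h (Vcam1, Sele, Itgax, Itga4, Itga5 and Itgb2), against 27.9% of all genes, and by 3 at 24 h (Itga5, Itgax and Itgb2), against 26.3%; DESeq2 also called 0 at 24 h. The medians of the genotype differences were 0.07 at 3 h and -0.01 at 24 h, beside -0.01 and 0.01 over all genes. As these are bulk cultures, fewer cells that make a transcript and less RNA per cell cannot be told apart.

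**Figure D1:**
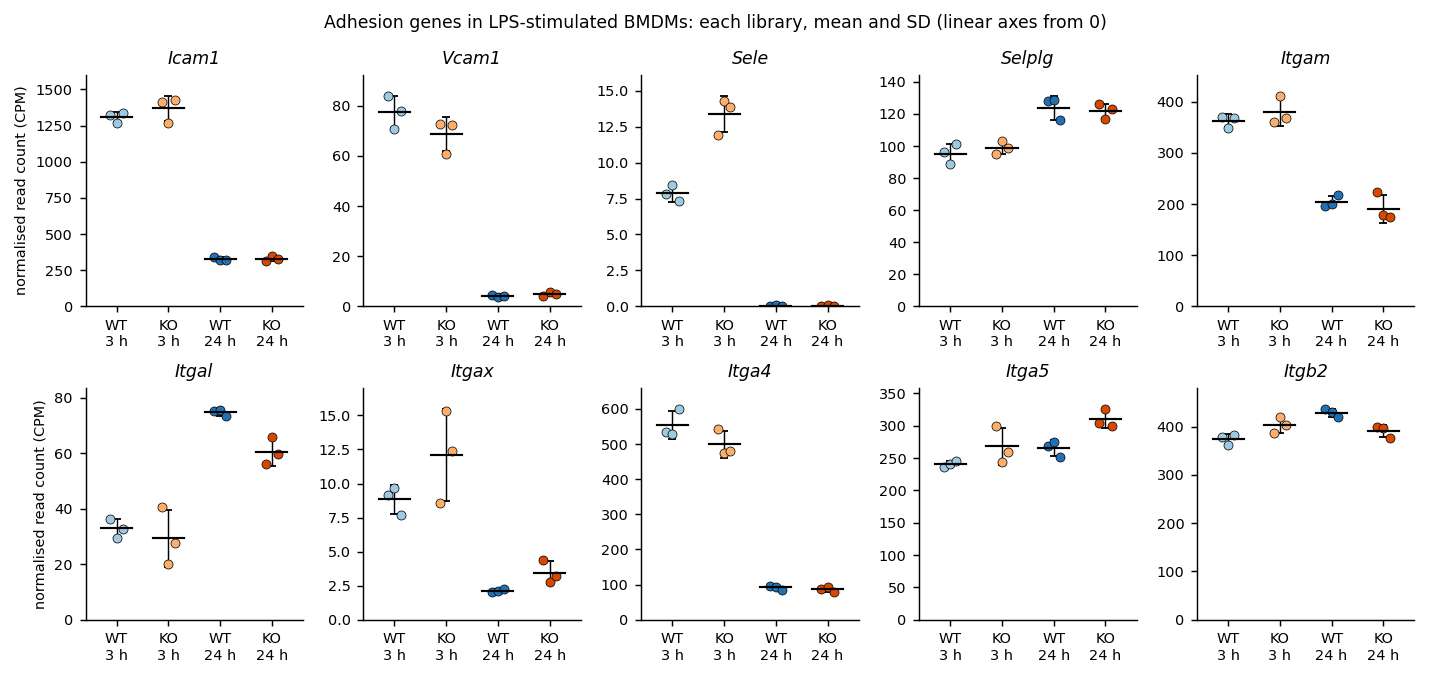
Normalised read counts (CPM, linear axes from 0) of the 10 genes in each of the 12 libraries, by genotype and hours of LPS; points are libraries, horizontal lines group means and bars the SD (n = 3). Icam1, Vcam1, Sele, Itga4, Itgax and Itgam are lower at 24 h, Itgal is higher, and in Sele at 3 h the KO libraries (11.9 to 14.3 CPM) lie above those of WT (7.33 to 8.47 CPM).

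Icam1, the ligand of LFA-1 and Mac-1, had the highest level of the 10 genes per length of transcript at 3 h, at 517 ± 14.1 CPM per kb in WT and 540 ± 34.8 in KO (SD, n = 3). In the GENCODE annotation Icam1 lies on chromosome 9 (21015985 to 21028817, plus strand, mm10) and overlaps Gm47079 on the other strand. That start is downstream of the RefSeq start used for the promoter above. The positions of the other genes below are GENCODE spans as well, whereas reads were counted on RefSeq transcripts. The strand setting of the counting is not given. The WT 3 h libraries held 1326, 1269 and 1334 CPM and the KO 3 h libraries 1414, 1268 and 1426 CPM. At 24 h the values were 344, 323 and 322 CPM in WT and 316, 349 and 328 CPM in KO. Every 24 h library lay below every 3 h library, and the genotypes overlapped at both times. The level fell 3.97-fold in WT (95% interval 3.69 to 4.28, edgeR adjusted p = 1.09e-24) and 4.14-fold in KO (3.84 to 4.46, adjusted p = 6.52e-25). The log2 difference between KO and WT was 0.06 at 3 h (95% interval -0.04 to 0.17) and 0.01 at 24 h (-0.10 to 0.11), so that at either time a difference as large as the 0.75 threshold lay outside the interval.

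Vcam1, the ligand of the alpha-4 integrins (chromosome 3, 116109949 to 116129688, minus strand, with Gm43109 on the other strand), was less abundant than Icam1 and decreased more. At 3 h it was measured at 83.9, 70.9 and 77.9 CPM in WT and at 72.7, 60.8 and 72.3 CPM in KO. At 24 h it was measured at 4.71, 3.71 and 4.34 CPM in WT and at 4.32, 5.67 and 4.76 CPM in KO. The time points were far apart in both genotypes, whereas KO and WT overlapped at each. The level fell 18.1-fold in WT (15.7 to 20.9, adjusted p = 8.25e-24, edgeR) and 14-fold in KO (12.1 to 16.1, adjusted p = 1.11e-22). The KO effect was -0.18 (SE 0.08, adjusted p = 0.124) at 3 h and 0.20 (SE 0.13, adjusted p = 0.346) at 24 h on the log2 scale, and the difference between these effects, 0.38 (SE 0.15), had an adjusted p of 0.118.

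Sele, which encodes E-selectin (chromosome 1, 164048234 to 164057677, plus strand), was the 1 gene of the 10 that was called between the genotypes. At 3 h it was measured at 7.79, 8.47 and 7.33 CPM in WT, from 157, 181 and 147 counts. The KO 3 h libraries held 11.9, 14.3 and 13.9 CPM, from 233, 326 and 290 counts. All 3 KO libraries lay above all 3 WT libraries. The level was 1.7-fold higher in KO (95% interval 1.42 to 2.04; log2 fold change 0.77, SE 0.13, edgeR adjusted p = 7.64e-05). This value lies just beyond the fold threshold: without KO 3 h replicate 2, KO 3 h replicate 3 or WT 3 h replicate 3 it was 0.72, 0.74 and 0.72, and the call was lost on the fold alone, with adjusted p of 2.77e-04, 0.00122 and 0.00156. Over its 19 alternatives the adjusted p ran from 2.99e-07 to 0.00156.

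Because E-selectin is best known from endothelium, the levels of 10 endothelial markers were set beside it. Their sum was 79.7 to 84.2 CPM in WT 3 h and 149 to 167 CPM in KO 3 h, and 61.2 to 69.1 and 82.3 to 92.5 CPM at 24 h. At 3 h most of this sum was Vwf (65 CPM in WT and 139 CPM in KO, log2 fold change 1.09, SE 0.07, edgeR adjusted p = 8.78e-11), the von Willebrand factor gene. It was followed by Kdr (16 and 20 CPM, log2 fold change 0.32, SE 0.09, adjusted p = 0.0107), a receptor of vascular endothelial growth factor. Of the others Cldn5 was at 0 in all 12 libraries, Emcn, Robo4, Tie1, Tek, Esam and Egfl7 were under 1 CPM in every library, and the cadherin gene Cdh5 was at 1.09 CPM in WT and 1.12 CPM in KO (log2 difference 0.05, SE 0.33, adjusted p = 0.953). At 24 h Vwf and Kdr were also higher in KO, by 0.46 and 0.40 on the log2 scale (edgeR adjusted p = 1.34e-04 and 2.17e-04), under the fold threshold. The part of Vwf and Kdr in the Sele result was not tested.

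At 24 h Sele was close to absent. The WT 24 h libraries held 1, 2 and 1 counts (0.041, 0.0853 and 0.0153 CPM) and the KO 24 h libraries 1, 2 and 0 counts (0.0375, 0.0804 and 0 CPM). Pooled over libraries, 485 counts at 3 h stood against 4 at 24 h in WT and 849 against 3 in KO, after scaling a ratio of 223 (95% exact counting interval 86.6 to 822) in WT and 347 (118 to 1688) in KO. Both decreases were called (edgeR adjusted p = 2.37e-20 and 1.74e-21). Sele passed the filter on low counts through its 3 h libraries alone, so a decrease was favoured by the filter and these calls add little to the counts. A genotype difference at 24 h was not detectable at this depth, with a 95% interval of the log2 fold change from -1.87 to 2.10.

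Selplg, which encodes the selectin ligand PSGL-1 (chromosome 5, 113818536 to 113832644, minus strand), went the other way to the ligands above, by a small amount. It was measured at 96, 88.7 and 101 CPM in WT 3 h and at 94.8, 103 and 99 CPM in KO 3 h. At 24 h the values were 128, 129 and 116 CPM in WT and 126, 117 and 123 CPM in KO. The 24 h libraries were above the 3 h libraries in both genotypes, and KO and WT overlapped throughout. The increase was 1.3-fold in WT (1.2 to 1.41, edgeR adjusted p = 6.24e-07) and 1.23-fold in KO (1.14 to 1.34, adjusted p = 2.13e-05), under the fold threshold. The genotype difference was 0.06 at 3 h (95% interval -0.06 to 0.18) and -0.02 at 24 h (-0.14 to 0.09) on the log2 scale.

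**Figure D2:**
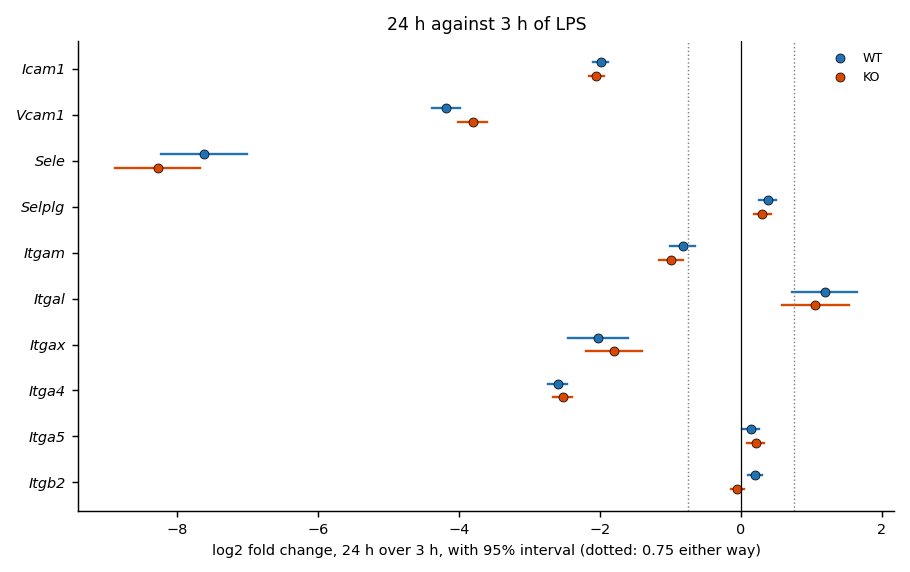
Log2 fold change between 24 h and 3 h of LPS for the 10 genes in WT and KO macrophages (points, horizontal axis), with 95% intervals from the edgeR fit (lines) and the 0.75 thresholds (dotted). Icam1, Vcam1, Sele, Itgam, Itgax and Itga4 lie left of the lower threshold in both genotypes, Itgal lies right of the upper one, and Selplg, Itga5 and Itgb2 lie between them. The fitted Sele values rest on 0 to 2 counts a library at 24 h and depend on the prior count of the fit.

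Among the integrin alpha chains that pair with Itgb2, Itgam was the most abundant and decreased with time. Itgam (chromosome 7, 128062640 to 128118491, plus strand) overlaps Gm49368 on the same strand, so that reads of the 2 could be shared. It was measured at 371, 349 and 369 CPM in WT 3 h and at 361, 412 and 368 CPM in KO 3 h. The 24 h values were 197, 200 and 218 CPM in WT and 223, 178 and 174 CPM in KO. No 24 h library reached any 3 h library, and the genotypes overlapped. The level fell 1.77-fold in WT (1.57 to 1.99, edgeR adjusted p = 1.37e-07) and 1.99-fold in KO (1.76 to 2.24, adjusted p = 1.35e-08). The KO effect was 0.07 at 3 h (95% interval -0.11 to 0.24) and -0.10 at 24 h (-0.28 to 0.07) on the log2 scale.

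Itgal, the alpha chain of LFA-1 (chromosome 7, 127296260 to 127335138, plus strand), was the 1 gene of the 10 that was called higher at 24 h. It was measured at 36.5, 29.4 and 32.6 CPM in WT 3 h and at 40.5, 20 and 27.7 CPM in KO 3 h, where the spread was widest. At 24 h it was measured at 75.4, 75.6 and 73.4 CPM in WT and at 56.1, 65.9 and 59.8 CPM in KO. The level rose 2.28-fold in WT (1.65 to 3.14, edgeR adjusted p = 5.69e-04) and 2.07-fold in KO (1.49 to 2.88, adjusted p = 0.00137). At 24 h all 3 KO libraries lay below all 3 WT libraries, but the difference of -0.30 on the log2 scale (95% interval -0.74 to 0.13) did not pass the test (adjusted p = 0.367). At about the same size (-0.31) it had an adjusted p of 4.56e-05 when the 24 h groups were fitted alone and of 0.0326 without KO 3 h replicate 1, the highest library of the widely spread KO 3 h group.

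Itgax, the CD11c chain often used to mark dendritic cells and some macrophages (chromosome 7, 128129547 to 128150657, plus strand), had the lowest level per kb of the 10 genes at 3 h. It was measured at 9.14, 9.69 and 7.68 CPM in WT 3 h and at 8.56, 15.3 and 12.4 CPM in KO 3 h. The 24 h values were 2.05, 2.09 and 2.28 CPM in WT and 4.39, 2.77 and 3.22 CPM in KO. It fell 4.07-fold with time in WT (3.03 to 5.47, edgeR adjusted p = 3.77e-08) and 3.49-fold in KO (2.65 to 4.6, adjusted p = 7.09e-08). At 24 h the 3 KO libraries lay above the 3 WT libraries, and the log2 difference of 0.68 (95% interval 0.21 to 1.15) missed both thresholds, with an adjusted p of 0.0524. Both single libraries and settings changed this outcome. Without KO 24 h replicate 2 the difference was 0.81 with an adjusted p of 0.0318 and was called, and without KO 24 h replicate 1 it was 0.47 with an adjusted p of 0.247. In edgeR the adjusted p alone was also passed without a count filter (0.00125), with RLE scaling (0.0495) and with the 24 h groups alone (0.0047). It was passed too without KO 3 h replicate 1 or 2 (0.00338 and 0.0049), which are not in the comparison. DESeq2 gave 0.69 with an adjusted p of 0.00962, past the first threshold but not the fold, and over 20 alternatives the adjusted p ran from 0.00125 to 0.247. At 3 h the groups overlapped, with a difference of 0.46 (95% interval 0.10 to 0.82, adjusted p = 0.0856).

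Markers of other myeloid cells were set beside these chains. The 10 neutrophil markers summed to 11.9 to 15.3 CPM at 3 h and 3.44 to 4.7 CPM at 24 h over both genotypes, with Ly6g and Retnlg at 0 in all libraries; the 4 that could be tested (Ngp, Ltf, S100a8 and S100a9) were called lower at 24 h in both genotypes and none between genotypes. The 8 dendritic cell markers summed to 3.23 to 3.94 CPM at 3 h, to 2.09 to 2.86 CPM in WT 24 h and to 3.07 to 3.58 CPM in KO 24 h. At 24 h the chemokine receptor gene Ccr7 was the largest part of that sum, at 1.09 CPM in WT and 1.78 CPM in KO (log2 difference 0.68, edgeR adjusted p = 0.0564), and 5 of the 8, among them Flt3, Zbtb46 and Clec9a, were under 1 CPM in every library. The part of these genes in the levels of Itgam and Itgax was not tested.

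Itga4 and Itga5, the alpha chains that pair with the beta-1 chain, differed in their course over time: Itga4 decreased and Itga5 was slightly higher at 24 h. Itga4 (chromosome 2, 79255426 to 79333123, plus strand), part of the receptor of VCAM-1, overlaps Cerkl on the other strand. Its values were 533, 529 and 600 CPM in WT 3 h and 544, 475 and 479 CPM in KO 3 h. At 24 h they were 95.6, 93.8 and 85.8 CPM in WT and 86.7, 92.6 and 79.5 CPM in KO. The 24 h libraries lay far below those of 3 h in both genotypes, a decrease of 6.05-fold in WT (5.49 to 6.66, edgeR adjusted p = 3.50e-21) and 5.79-fold in KO (5.25 to 6.38, adjusted p = 6.81e-21). Between genotypes the log2 difference was -0.15 at 3 h (95% interval -0.28 to -0.02, adjusted p = 0.118) and -0.09 at 24 h (-0.22 to 0.05, adjusted p = 0.439).

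Itga5, the alpha chain of the fibronectin receptor (chromosome 15, 103344286 to 103366763, minus strand), overlaps the microRNA gene Mir6963 on the same strand. It was measured at 236, 241 and 246 CPM in WT 3 h and at 300, 244 and 260 CPM in KO 3 h. At 24 h the values were 269, 275 and 252 CPM in WT and 304, 326 and 300 CPM in KO, with all KO libraries above all WT libraries. The KO level at 24 h was 1.17-fold that of WT (95% interval 1.08 to 1.27, edgeR adjusted p = 0.0085). In this fit Itga5 was the 1 gene of the 10 past the adjusted p alone at 24 h, as were 13.9% of all genes tested, and Sele was the 1 at 3 h, as were 15.4%. Itga5 lost it without KO 24 h replicate 2 or WT 24 h replicate 4 (adjusted p = 0.067 in each, edgeR). Over time Itga5 was 1.1-fold higher at 24 h in WT (1.01 to 1.2, adjusted p = 0.0361) and 1.16-fold higher in KO (1.06 to 1.26, adjusted p = 0.00196). The difference in WT missed the test under DESeq2 (adjusted p = 0.126). In edgeR it also missed with all 13 libraries (adjusted p = 0.0639) and with RLE scaling (0.087). The same held without WT 24 h replicate 2 or 3, or without any 1 of the WT 3 h libraries (0.0522 to 0.137).

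Itgb2, the beta-2 chain (chromosome 10, 77530252 to 77565708, plus strand), was the 1 gene of the 10 whose KO effect differed between the time points, against 9.53% of all genes tested. Its values were 378, 363 and 382 CPM in WT 3 h and 387, 420 and 404 CPM in KO 3 h, each KO library above each WT library. At 24 h they were 437, 430 and 421 CPM in WT and 400, 397 and 376 CPM in KO, each KO library below each WT library. The KO effect on the log2 scale was 0.11 (SE 0.05, edgeR adjusted p = 0.122) at 3 h and -0.14 (SE 0.05, adjusted p = 0.0525) at 24 h, neither past the test by itself in this fit. The 24 h effect, at -0.13, passed the adjusted p under DESeq2 (0.0402), and with the 24 h groups alone it did so too (0.015). In edgeR it also passed without a count filter (0.0309), with at least 10 counts in every library (0.0443) and with 1 transcript per gene (0.0441). The same held without KO 3 h replicate 1 or 2, or without any 1 of the WT 3 h libraries (0.0139 to 0.0463). The difference between the 3 h and 24 h effects was -0.25 (SE 0.07, edgeR adjusted p = 0.0172). It had an adjusted p of 0.0682 without KO 24 h replicate 3 and of 0.0978 with the 13th library included, and over 19 alternatives it ran from 0.0021 to 0.0978. With time Itgb2 rose 1.15-fold in WT (1.07 to 1.23, adjusted p = 3.98e-04), and in KO the log2 difference was -0.05 (95% interval -0.14 to 0.05, adjusted p = 0.371).

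**Figure D3:**
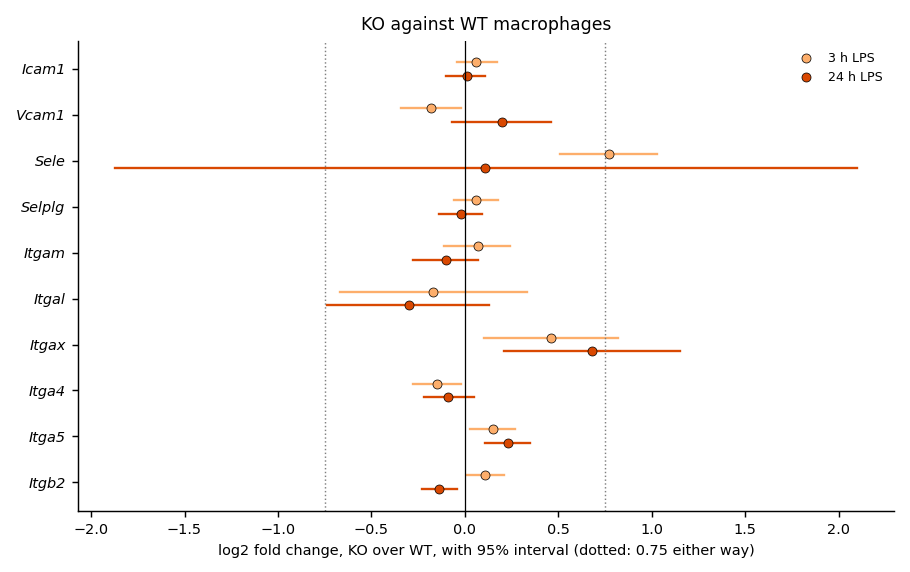
Log2 fold change of KO over WT for the 10 genes at 3 h and 24 h of LPS (points, horizontal axis), with 95% intervals from the edgeR fit (lines) and the 0.75 thresholds (dotted). Sele at 3 h (0.77) is the point beyond a threshold, the interval of Sele at 24 h runs from -1.87 to 2.10, and the intervals of Itgb2 lie above 0 at 3 h and below 0 at 24 h.

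In all, the KO and WT libraries did not overlap for 2 of the 10 genes at 3 h (Sele and Itgb2, both higher), against 30.1% of all genes, and for 4 at 24 h (Itgax and Itga5 higher, Itgal and Itgb2 lower), against 33.1%. Both counts are close to the shares of all genes.

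Levels were set side by side between genes per kb of transcript, with the length of the GENCODE transcript matched to the RefSeq transcript used. Itgal, Itgam and Itga5 had further RefSeq transcripts with equal or nearly equal counts. The counts therefore do not tell which length applies, and the order below and the ratios of chains depend on the lengths used. In WT 3 h the order was Icam1, Itgb2 (126 CPM per kb), Itgam (77.6), Itga4 (56.7), Itga5 (55), Selplg (51.3), Vcam1 (22.4), Itgal (6.33), Sele (2.7) and Itgax (2.18). The libraries of Itga4 and Itga5 overlapped, as did those of Itga5 and Selplg, and the other neighbours did not. In WT 24 h the order was Itgb2 (145), Icam1 (130), Selplg (66.9), Itga5 (60.6), Itgam (43.8), Itgal (14.4), Itga4 (9.39), Vcam1 (1.23), Itgax (0.528) and Sele (0.0162), with overlap between Selplg and Itga5. In KO 24 h Itgb2 (132) and Icam1 (131) overlapped.

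The make-up of the integrin chains was described by ratios within each library, chosen after the values were seen and given without a test. Of the summed per-kb level of Itgal, Itgam and Itgax, the share of Itgal was 7.34% ± 0.551 in WT 3 h and 6.38% ± 2.47 in KO 3 h, and 24.5% ± 1.3 in WT 24 h and 22.1% ± 3.47 in KO 24 h (SD, n = 3). The share of Itgax was 2.54% ± 0.357 in WT 3 h and 3.3% ± 0.787 in KO 3 h, with overlap. At 24 h it was 0.886% to 0.917% in the WT libraries and 1.34% to 1.82% in the KO libraries, without overlap. Itgam still made up 74.6% ± 1.29 in WT and 76.3% ± 3.24 in KO at 24 h. The sum of these alpha chains was 0.683 ± 0.0119 times the per-kb level of Itgb2 in WT 3 h and 0.407 ± 0.0227 times in WT 24 h, with 0.661 ± 0.019 and 0.405 ± 0.0316 in KO. The ratio of Itga4 to Itga5 per kb was 1.01, 0.986 and 1.09 in WT 3 h and 0.814, 0.872 and 0.828 in KO 3 h. At 24 h it was 0.159, 0.153 and 0.153 in WT and 0.128, 0.128 and 0.119 in KO. At both times the KO libraries lay below the WT libraries in this ratio, and the time points were further apart than the genotypes.

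**Figure D4:**
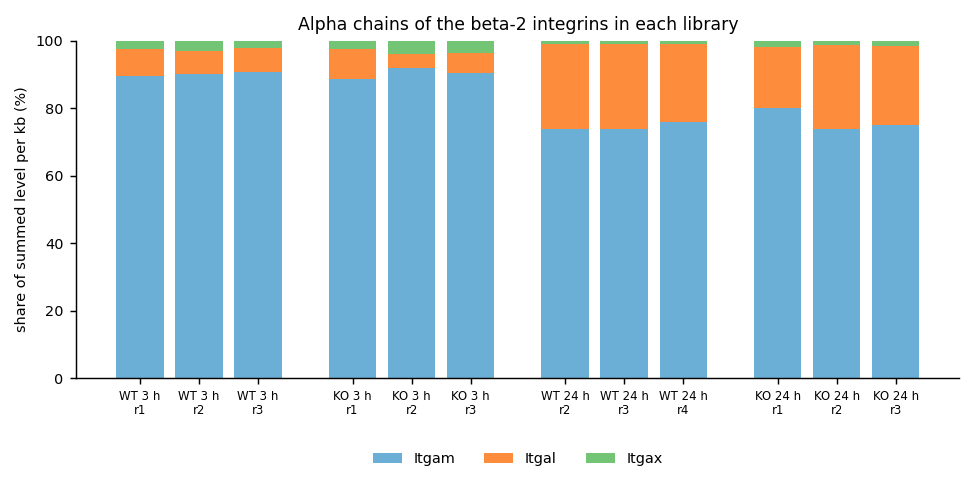
Share (percent, vertical axis) of Itgam, Itgal and Itgax in their summed level per kb of transcript, 1 stacked bar for each of the 12 libraries. The Itgal share is 4.04% to 8.95% in the 3 h libraries and 18.1% to 25.4% in the 24 h libraries, and the genotypes overlap in it at each time, whereas the Itgax share at 24 h is higher in all KO libraries (1.34% to 1.82%) than in WT (0.886% to 0.917%).

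Around these 10 genes, 104 related genes in 6 lists (other integrin subunits, integrin activation and adaptors, other selectins and selectin ligands, other immunoglobulin-type adhesion molecules, matrix ligands and sheddases) were looked up, of which 73 could be tested. With time 11 were called higher and 34 lower in WT, and 8 higher and 33 lower in KO. Of all genes tested, 40.4% were called with time in WT and 41.9% in KO. P-selectin, encoded by Selp, was also called lower with time in both genotypes: it was at 12.4 CPM in WT 3 h and 0.0681 CPM in WT 24 h, and at 10.5 and 0.141 CPM in KO. The hyaluronan receptor and selectin ligand Cd44 decreased from 1339 to 121 CPM in WT (log2 fold change -3.47, SE 0.06) and from 1342 to 111 CPM in KO (-3.60, SE 0.06). Others with the largest changes were Fbln5 (-4.05 in WT and -3.22 in KO), Itgav (-3.58 and -3.52) and Itga8, at 0.664 and 0.0812 CPM in WT and at 1.16 and 0.0125 CPM in KO, all called lower in both genotypes, and, higher at 24 h in both, Pecam1 (1.68 in WT and 2.83 in KO) and Itgae (1.58 and 1.60). Selp and Itga8 passed the filter on low counts through their 3 h libraries alone, so their lower calls were favoured by the filter. Itgb1, a partner of Itga4 and Itga5, was at 590 CPM in both genotypes at 3 h and at 434 CPM in WT and 430 CPM in KO at 24 h.

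Between genotypes, 3 of the 73 were called higher and 2 lower at 3 h, against 2.01% of all genes tested called in either direction. The matrix protease gene Mmp9 (log2 fold change 1.56, SE 0.22), the sialomucin gene Spn (1.42, SE 0.14) and the integrin beta-3 chain Itgb3 (0.83, SE 0.18) were higher, with edgeR adjusted p of 5.70e-05, 1.70e-07 and 0.0116. The alpha-9 chain Itga9 (-1.19, SE 0.14, adjusted p = 3.12e-07) and the Src-family kinase gene Fgr (-1.16, SE 0.20, adjusted p = 1.50e-04), whose product signals from integrins, were lower. At 24 h 4 were called higher, Pecam1 (1.17, SE 0.18), F11r (1.09, SE 0.30), Itgb3 (0.98, SE 0.18) and Cd24a (0.94), and Itga9 was called lower (-0.96, SE 0.18). Of all genes tested, 1.38% were called at 24 h. The difference of the KO effect between the time points passed the adjusted p for 12 of the 73, against 9.53% of all genes tested. Of the 12, 8 were higher and 4 lower at 24 h relative to 3 h.

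**Figure D5:**
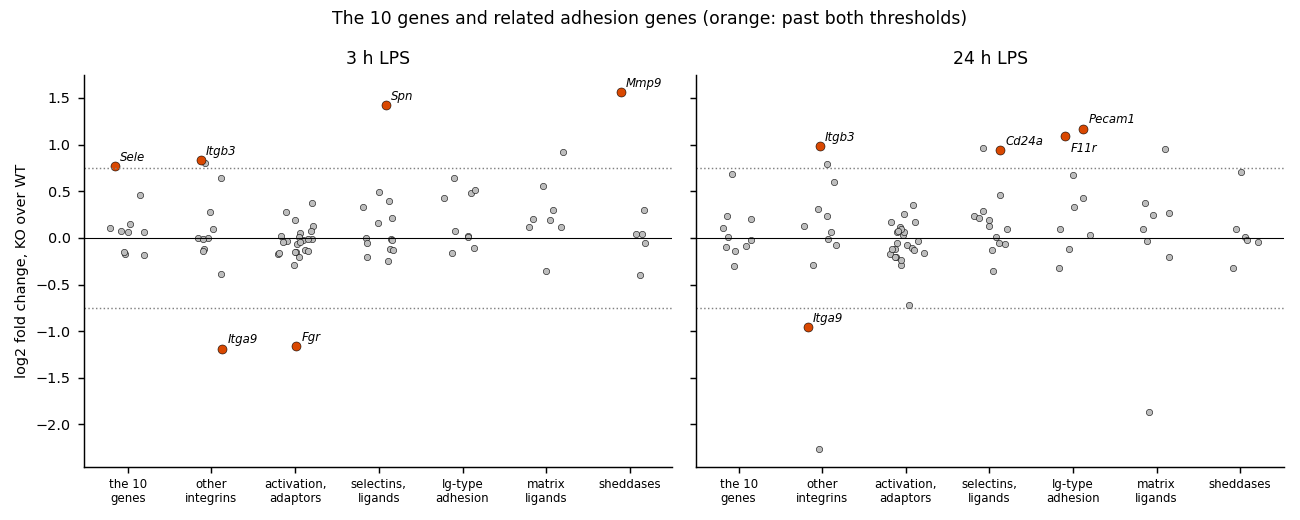
Log2 fold change of KO over WT (vertical axis) at 3 h and 24 h for the 10 genes and the tested genes of the 6 related lists (horizontal axis), 1 point a gene, with genes past both thresholds in orange and named. Of the 10 genes Sele is named at 3 h and none at 24 h; Itgb3 and Itga9 are named at both times.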

How the data were processed

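RNA-seq was measured in LPS-stimulated WT and KO BMDMs. The authors made strand-specific mRNA libraries (KAPA mRNA HyperPrep), aligned the reads to mm10 with STAR 2.5.2b (version from the submitters' processing notes) and counted tags on RefSeq transcripts with HOMER. The authors deposited raw counts, not normalized, for 35745 transcripts. The strand setting of the counting is not given in the sources used here. Symbols came from a RefSeq gene table and GENCODE (35628 transcripts named); the 117 unnamed transcripts, 1.13% of counts, stayed in the fit.

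Counts were normalized by TMM, filtered with filterByExpr (19621 transcripts of 11904 genes kept) and fitted with robust quasi-likelihood models in edgeR 4.0.16 (R 4.3.3), 4 groups in 1 fit of 12 libraries, as the study states 3 per group. Each gene stands for its transcript with the highest total, and background shares count genes the same way. The study used DESeq2, which was run here as an alternative. The fit was also run on simulated counts, drawn with the trend of the spread alone and with known changes only in rows with higher counts. That run is no check of genes with few counts or with a spread far from the trend. Alternatives were all 13 libraries, DESeq2 1.42.0, RLE scaling, other count filters, 1 transcript per gene, the 2 groups compared alone, each library left out, a replicate block and a log2 threshold of 1. Replicate numbers were not used as pairs. Motif shares were counted over a RefSeq promoter table. Named were all 10 genes, Acly, the markers, and from the related lists, per comparison, at most 3 called genes in each direction with the largest fold change whose groups did not overlap; Cd24a, Itgb1 and the ratios of chains were added after their values were seen. A gene that this rule names is not reported here. The 10 genes and the lists were chosen with earlier results of these data known. Unstimulated libraries were not analysed here.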

Additional observations from a re-analysis of the deposited data

Results flagged for a closer look

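The library WT 24 h replicate 1, left out above, stood apart from the other 3 WT 24 h libraries in 6 of the 10 genes by the gap of the extreme sample over the range (chance flags about 1 in 20 groups). Scaled with all 13 libraries, Icam1 was at 1031 CPM there (46 counts, 95% exact counting interval 754 to 1374), against 329 to 352 CPM in the others. Itgb2 was at 291 CPM (13 counts, 155 to 498), against 431 to 447 CPM. Selplg and Itgal were each at 44.8 CPM from 2 counts, against 118 to 132 and 75 to 77.2 CPM. Vcam1 and Itgax were each at 22.4 CPM from 1 count, against 3.79 to 4.82 and 2.09 to 2.32 CPM. The counting intervals of Selplg and Itgal (5.43 to 162) and of Vcam1 and Itgax (0.567 to 125) hold the levels of the other libraries, as does that of Itgb2, whereas that of Icam1 does not.

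The KO effect on Itgb2 differed between 24 h and 3 h by -0.25 on the log2 scale (edgeR adjusted p = 0.0172), with all 3 KO libraries above WT at 3 h and all 3 below at 24 h. This was 1 of the 10 genes, close to the 9.53% of all genes tested that passed. The adjusted p was 0.0682 without KO 24 h replicate 3 and 0.0978 with all 13 libraries.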

How the results depend on the processing

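Of 385 log2 fold changes of the 10 genes under settings other than leaving out a library, 379 kept their direction and their call on both thresholds together; on the adjusted p alone 5 were lost and 12 gained. With all 13 libraries 0 of the 10 genes passed for the difference of the KO effect. At 3 h 0 were called between genotypes when each library had to hold at least 10 counts, which removed Sele, and 0 with a log2 threshold of 1. Small values changed sign: Icam1 between genotypes at 24 h was -0.04 with all 13 libraries, -0.02 without a count filter, -0.01 with a replicate block and -0.0018 with the 2 groups alone, and Sele at 24 h was -0.59 with the replicate block. The block changed no other direction or call; on the adjusted p alone Itga5 at 24 h was lost (0.17, adjusted p = 0.14). Whether replicate numbers pair the libraries was not settled. Correlations over 15 same-number pairs were -0.0305 to 0.0583, whereas for 7 of 12 libraries the closest library of another group had their own number.

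With 1 library left out, 578 of 600 such values kept direction and call; on the adjusted p alone 8 were lost and 17 gained, the latter all between genotypes or in the difference of the KO effect. Between genotypes 0 to 1 of the 10 genes were called at 3 h (0 without KO 3 h replicate 2, KO 3 h replicate 3 or WT 3 h replicate 3) and 0 to 1 at 24 h (1, Itgax, without KO 24 h replicate 2), and 7 over time in each genotype. For the difference of the KO effect 0 to 2 passed: 0 without KO 24 h replicate 3, and 2, with Itgam at -0.29 (adjusted p = 0.0266, edgeR), without KO 24 h replicate 1. Log2 values that changed sign ran from -0.03 to 0.04 (Icam1), -0.76 to 0.68 (Sele) and -0.07 to 0.01 (Selplg) at 24 h, -0.46 to 0.05 (Itgal) at 3 h, and -0.36 to 0.15 (Itgal) and -0.01 to 0.12 (Itga4) for the difference. The causes were not tested. Depth limits Sele at 24 h, with 0 to 2 counts a library.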
